A study of Rattus norvegicus with 20 samples.

Results

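The comparison set the livers of 5 rats fed sesamolin against those of 5 rats fed a lignan-free diet, which are 10 of the 20 arrays in the series, chosen by the diet named for each array. All rats were male Sprague-Dawley, arrived at 4 weeks of age, had 7 d on a commercial diet and were then fed for 15 d, with sesamolin at 0.2% of the diet in one group and no lignan in the other. Each group held 7 rats, and the rats of highest and lowest body weight in each were not put on arrays. The other 10 arrays came from rats given 0.2% sesamin or 0.2% episesamin for the same time, and they serve here for the shared estimate of the spread and for direct comparisons at matched dose. RNA of 1 liver was hybridised to 1 Affymetrix expression array, so the replicate is the rat.

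Sesamolin is a furofuran lignan of sesame seed in which an ether oxygen links one of the methylenedioxyphenyl groups to the furofuran ring. In sesamin and episesamin, which are epimers, both aromatic groups are joined to the ring directly. Sesame lignans are studied in rodent liver for their action on fatty acid oxidation. In that organ fatty acids are taken up, bound by carrier proteins, activated to acyl-CoA and passed to mitochondria through carnitine esters, while very long and branched chains are shortened in peroxisomes and a minor route starts with omega-hydroxylation in the endoplasmic reticulum. PPAR alpha, a nuclear receptor that pairs with RXR on direct repeats in DNA, is the best known regulator of these genes in rodents, and fibrate drugs that bind it cause peroxisomes to proliferate.

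Levels below are quantile normalized array intensities, which have no absolute scale and are not comparable between genes. Log2 changes (sesamolin minus lignan-free, ± SE) were taken after adding an offset of 5.85, which understates the change of dim genes, and every fold is on that scale, except that an "at least" fold sets the geometric mean of the brighter diet against that of the dimmer diet, with arrays of the dimmer diet below the filter level set to it and no offset. Adjusted p-values come from limma with Benjamini-Hochberg adjustment over all 11576 genes tested, 5 rats a diet, and a gene is called at an adjusted p below 0.05. Sesamolin raised 380 genes (3.28% of those tested) and lowered 342 (2.95%). These shares are the ones to set beside the counts of list members below. At least 2-fold changes were far more often increases, with 87 higher and 33 lower. Most called changes were small, since 201 of the higher and 178 of the lower genes moved by under 1.5-fold, and the median called change was 0.56 in one direction and -0.56 in the other. Over all genes the median change was -0.01, and 48.6% of genes lay above 0. The 5 sesamolin arrays all lay above the 5 lignan-free arrays for 289 of the genes called higher, and all below for 247 of those called lower, against 428 (3.7%) and 373 (3.22%) of all genes tested. The share of increases among calls depended on scaling: it was 52.6% here, 28.0% with median scaling (178 higher, 457 lower) and 25.8% with no normalization between arrays (68 and 196), where the median of all genes moved to -0.10 and -0.22. Single arrays moved the totals by over 1.5 times: 250 and 252 genes were higher without lignan-free replicate 5 or sesamolin replicate 5. For lower genes the totals fell to 221, 223 and 210 without lignan-free replicates 2, 4 and 5, and to 225 and 220 without sesamolin replicates 3 and 5.

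**Figure D1:**
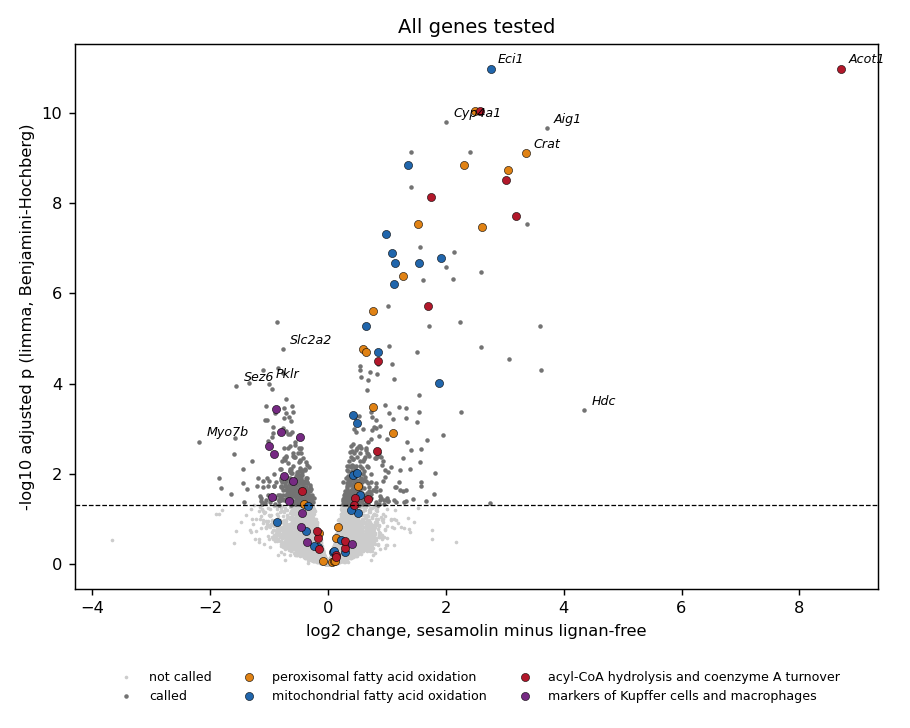
Log2 change (sesamolin minus lignan-free) on the horizontal axis against -log10 of the limma adjusted p on the vertical axis, 1 point per gene, 11576 genes; the dashed line marks an adjusted p of 0.05 and coloured points are members of 4 gene lists. Fatty acid oxidation and acyl-CoA genes fill the upper right, with Acot1 at 8.71, while markers of Kupffer cells lie on the left.

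Within a diet, arrays correlated at 0.9596 to 0.9798. Mean raw intensity was 221 ± 45.3 with sesamolin and 247 ± 29.2 without lignan (exact permutation p = 0.262, two-sided, n = 5 against 5; the smallest p this design can give is 0.00794). The summed level of 10 hepatocyte markers was 84170.0 ± 2826 against 86588 ± 2350 (exact permutation p = 0.151, n = 5 each). That of 13 Kupffer cell and macrophage markers was 6321 ± 765 against 9496 ± 413, with no overlap between the diets, and stellate and endothelial markers were lower too (all 3 with an exact permutation p = 0.00794, n = 5 each). The stellate sums parted narrowly, with 4790 the highest with sesamolin and 4832 the lowest without lignan. Lymphocyte and neutrophil markers were lower and bile duct markers higher (exact permutation p = 0.0556 and 0.0714, n = 5 each). These p-values are not adjusted for the number of sums, and bright genes weigh most in a sum. In whole liver, fewer cells of a type and less RNA per cell cannot be told apart.

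Transcripts of acyl-CoA hydrolysis and coenzyme A turnover led the response. Acyl-CoA thioesterases split activated fatty acids into free acid and coenzyme A. The cytosolic thioesterase Acot1 read 10.1, 4.24, 6.70, 4.33 and 11.7 on the 5 lignan-free arrays, all below the filter level of 17.8 that separates dim from measured probe sets, and 6444, 4135, 5862, 5343 and 5576 on the 5 sesamolin arrays. Every sesamolin array was thus bright where every lignan-free array was dim, and the rise was at least 303-fold against the filter level (log2 change 8.71 ± 0.36, adjusted p = 1.06e-11, limma); the log2 value rests on the offset, at 7.87 with an offset of 16 and 9.64 with none. Acot3, a peroxisomal thioesterase, read 41.7, 43.2, 34.5, 27.7 and 64.9 without lignan and 656, 283, 372, 383 and 507 with sesamolin. Its lowest sesamolin array was several times its highest lignan-free array, and it rose 9.16-fold (3.2 ± 0.23, adjusted p = 1.96e-08). The mitochondrial Acot2 rose 6.01-fold, from 313 ± 55.0 to 1889 ± 144 (SD, n = 5), and was higher on each of its 3 probe sets. Acot1 and Acot2 are close relatives in sequence, and cross-hybridisation between their probes was not tested.

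The pantetheinase Vnn1, which breaks down pantetheine from coenzyme A, rose 8.09-fold, from 269 ± 77.7 to 2199.9 ± 498 (adjusted p = 3.13e-09, limma, n = 5). Nudt7, a peroxisomal coenzyme A diphosphatase, rose 3.38-fold, from 352 ± 13 to 1215 ± 181, so both enzymes of coenzyme A breakdown named here went up. The brain-type thioesterase Acot7 rose 3.25-fold, but its other probe set had a log2 change of only 0.46 ± 0.30. Of 19 members tested in this list, from 23 listed, 11 rose and 1 fell, with a median change of 0.46. The one that fell, named after its values were seen, was Pank3, a pantothenate kinase of coenzyme A synthesis, at -0.43 ± 0.11, and its relative Pank1, also named after its values were seen, rose by 0.86 ± 0.10. Baat, which conjugates bile acids, and Acot13 were at -0.18 ± 0.08 and -0.17 ± 0.08 and did not pass (adjusted p = 0.184 and 0.267). The number that rose was 8 to 10 when 1 array was left out.

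Peroxisomal fatty acid oxidation had 13 of 21 tested members higher and 1 lower, with a median of 0.64 against -0.01 for all genes. The 13 that rose did not overlap between diets. Crot, which makes carnitine esters of medium chains leaving the peroxisome, read 1347, 1204, 1311, 926 and 936 without lignan and 6606, 5934, 5801, 6733 and 7046 with sesamolin. All sesamolin arrays lay in a narrow band far above the controls, a 5.64-fold rise (2.50 ± 0.12, adjusted p = 9.16e-11, limma). Crat, the carnitine acetyltransferase that does the same for acetyl groups, read 114, 113, 120.3, 87.3 and 154 and then 1403, 643, 1621, 1384 and 1498. Sesamolin replicate 2 was the low one of its group and still above all lignan-free arrays, and Crat rose 10.3-fold (3.37 ± 0.19, adjusted p = 7.83e-10).

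Ehhadh, the bifunctional enzyme that hydrates and dehydrogenates the chain in peroxisomes, rose 8.3-fold, from 1136 ± 242 to 9481 ± 1945. Ech1, a dienoyl-CoA isomerase for unsaturated chains, rose 4.98-fold, from 1386 ± 334 to 6795 ± 379.7. Acot4 and Acot8, peroxisomal thioesterases, rose 6.16-fold and 2.9-fold (adjusted p at most 3.33e-08 for these 4 genes, limma, n = 5). The change was thus spread over chain shortening, isomerisation and export. A pair of abundant proteins of the same organelle did not pass: catalase, which removes hydrogen peroxide, was at 0.14 ± 0.07 (adjusted p = 0.266) and the thiolase and sterol carrier Scp2 at -0.15 ± 0.07 (adjusted p = 0.202). Hao2, a peroxisomal hydroxyacid oxidase named after its values were seen, was the 1 member that fell, at -0.40 ± 0.12 (adjusted p = 0.0472). With no normalization between arrays 8 members rose, and 12 or 13 did when 1 array was left out.

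Since PPAR and RXR bind direct repeats of AGGTCA with 1 base between, called DR1, the promoters were searched for 2 copies of AGGTCA in the same direction 1 base apart, on both strands, with at most 2 mismatches in the 12 half-site bases. RefSeq promoters of the build GRCr8 reach from 250 bases before to 50 after a start, and 9636 of the genes tested have one. A match lay in 302 of these (3.134%), in 1263 of all 33469 promoters (3.774%), in 22 of 328 genes called higher (6.707%) and in 10 of 289 called lower (3.46%). Among genes raised at least 2-fold it lay in 8 of 74 (10.81%). In the peroxisomal list 6 of 20 promoters held one and in the mitochondrial list 5 of 23, counts given as a description with no test. A match in these letters is not evidence of binding. The stretches below are a selection of the 22 matches in genes called higher, 5 from the fatty acid lists and Nim1k from the largest increases, with the match in capitals and the gene's own strand read 5′ to 3′; Acadvl and Slc27a2 were picked for their match after their values were seen.
Acot4: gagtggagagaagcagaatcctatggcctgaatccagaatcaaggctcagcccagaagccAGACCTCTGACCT
Acot8: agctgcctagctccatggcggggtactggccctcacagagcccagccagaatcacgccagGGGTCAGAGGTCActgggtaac
Crat: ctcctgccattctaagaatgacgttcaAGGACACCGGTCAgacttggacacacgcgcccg
Acadvl: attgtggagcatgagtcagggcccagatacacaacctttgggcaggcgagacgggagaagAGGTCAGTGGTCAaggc
Slc27a2: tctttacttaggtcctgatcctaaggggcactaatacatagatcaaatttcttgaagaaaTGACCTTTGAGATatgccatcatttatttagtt
Nim1k: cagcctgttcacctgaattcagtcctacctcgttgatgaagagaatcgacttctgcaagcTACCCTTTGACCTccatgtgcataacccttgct
Acot4 is read at chr6:109399781-109399853 (plus strand) with 1 mismatch, Acot8 at chr3:173962189-173962270 (minus strand) with 1 mismatch, and Crat at chr3:34087290-34087349 (minus strand) with 2. Acadvl lies at chr10:55236706-55236782 (minus strand, 1 mismatch), Slc27a2 at chr3:134257965-134258057 (plus strand, 2 mismatches) and Nim1k at chr2:53451326-53451418 (minus strand, 2 mismatches). In Acot4, Slc27a2 and Nim1k the repeat lies on the strand opposite to the gene. The matches of Acot4, Acot8 and Acadvl begin 13, 22 and 17 bases before the start. Acadvl, the very long chain acyl-CoA dehydrogenase, rose by 0.65 ± 0.07 and Slc27a2, which activates very long chains, by 0.64 ± 0.08. The windows of Acot1 and Ehhadh, among the largest increases, hold no match. Acot1, Acot2, Acot3 and Acot4 are neighbours on 1 chromosome.

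Mitochondrial fatty acid oxidation had 16 of 27 tested members higher and none lower, with a median of 0.50, and all 27 listed had been on the array and passed the filter. Eci1, the isomerase that moves double bonds of unsaturated chains, read 1624, 1646, 1749, 1203 and 1672 without lignan and 11688, 9277, 11239, 10224 and 11182 with sesamolin. Its lignan-free arrays lay close together apart from the lower replicate 4, and every sesamolin array stood well above them, a 6.8-fold rise (2.77 ± 0.12, adjusted p = 1.06e-11, limma). Its probe set carries a suffix for possible cross-hybridisation, and the other Eci1 probe set was at 0.84. Cpt2, which returns acyl groups from carnitine to coenzyme A, rose 2.92-fold, from 848 ± 151 to 2459 ± 145, and the carnitine transporter Slc22a5 3.8-fold, from 98.6 ± 14.7 to 396 ± 87.1. The trifunctional protein subunits Hadha and Hadhb rose together, 1.99-fold and 2.13-fold. The other Hadha probe set had a log2 change of 0.33 ± 0.16. Decr1, the dienoyl-CoA reductase, rose 2.56-fold, from 2640.0 ± 182 to 6782 ± 505.

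Carnitine palmitoyltransferase Cpt1a, the gate of long chains into mitochondria, was at 3215 ± 498 with sesamolin and 2261 ± 330.4 without, a change of 0.51 ± 0.16 that did not pass (adjusted p = 0.0733). The muscle form Cpt1b, named after its values were seen, rose from 30.1 ± 6.54 to 129.7 ± 37.1 (1.89 ± 0.25, adjusted p = 9.96e-05). The hydratase Echs1 stood at -0.16 ± 0.11, not called (adjusted p = 0.416). The count of members that rose was 15 to 17 when 1 array was left out and 10 with no normalization between arrays.

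**Figure D2:**
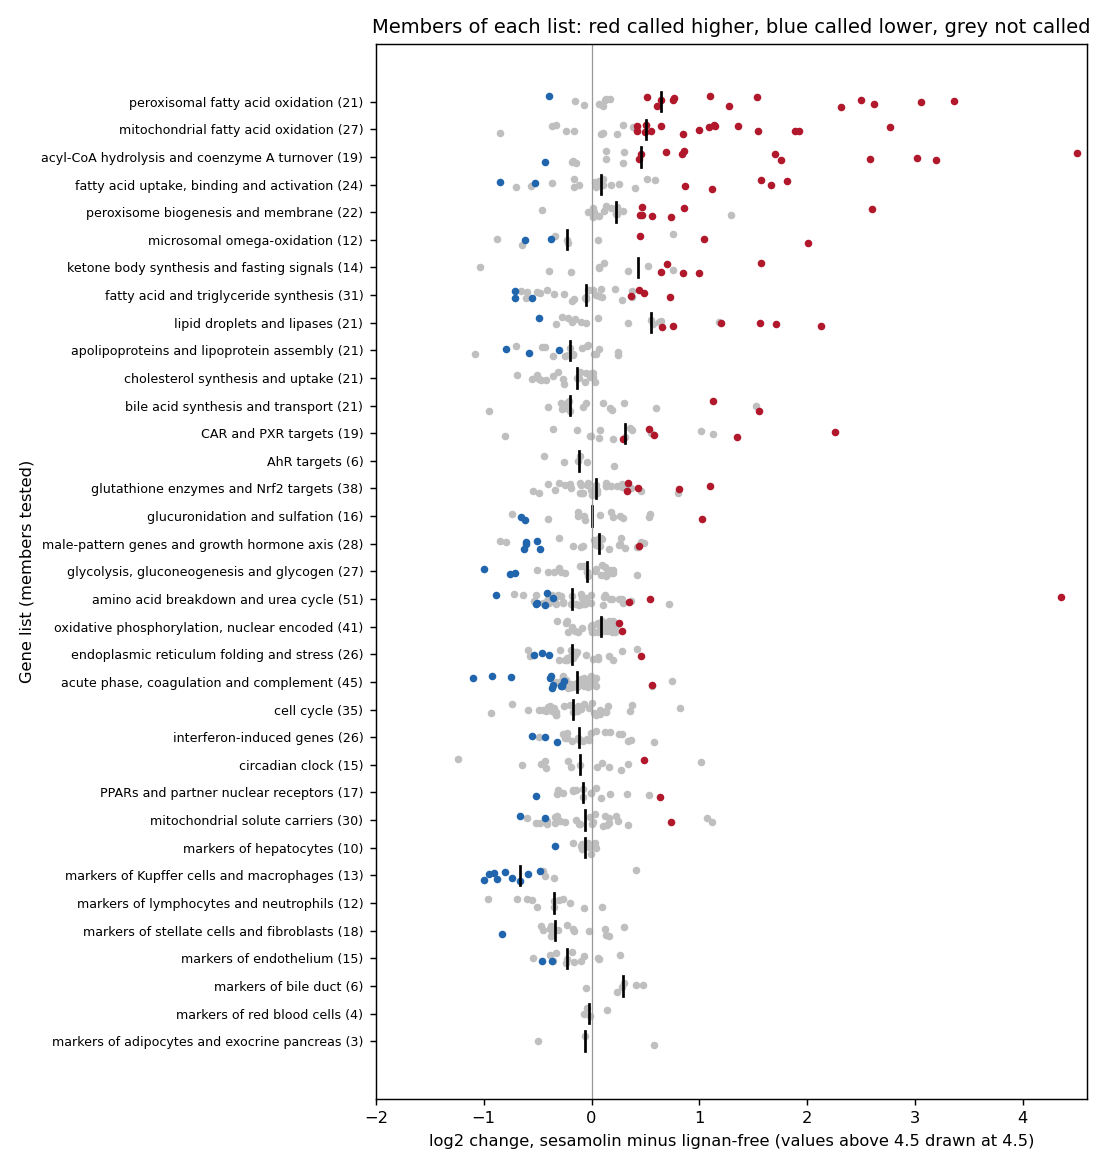
Log2 change of each tested member of 35 gene lists (horizontal axis, sesamolin minus lignan-free, values above 4.5 drawn at 4.5), with the number tested in brackets; red points were called higher, blue called lower and grey not called, and a black bar marks the list's median. The red points gather in the fatty acid lists at the top, and the Kupffer cell list has 9 of 13 members in blue.

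Peroxisome biogenesis genes had 7 of 22 members higher and none lower, with a median of 0.23. Pex11a, which elongates and divides peroxisomes, read 153, 168, 210.4, 172 and 256 without lignan and 1841, 663, 1008, 1071 and 1666 with sesamolin. All 5 sesamolin arrays were above the controls with a wide spread among them, and the gene rose 6.05-fold (2.60 ± 0.23, adjusted p = 3.38e-07, limma). The peroxisomal proteases Lonp2 and Tysnd1 rose by 0.86 ± 0.11 and 0.56 ± 0.10, and the membrane protein import factors Pex19, Pex16 and Pex3 by 0.74 ± 0.11, 0.45 ± 0.10 and 0.47 ± 0.11. Pex13 and Pxmp2 did not pass. With no normalization between arrays only Pex11a kept its call (adjusted p up to 0.315 for Tysnd1 and 0.57 for Pex3), and the list's median was 0.00. Pex3 and Pex16 also lost theirs under median scaling and when the 6 dim arrays of the series (mean raw intensity under 200) were dropped.

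Microsomal omega-oxidation split. Cyp4a1, a fatty acid omega-hydroxylase, read 2451, 2432, 3165, 3274 and 2761 without lignan and 12171, 9484, 12266, 11688 and 11049 with sesamolin. The diets stood far apart, a 4.03-fold rise (2.01 ± 0.10, adjusted p = 1.61e-10, limma). Its relative Cyp4a3 rose 2.06-fold and the fatty aldehyde dehydrogenase Aldh3a2 1.37-fold. In contrast, Cyp4b1 and Cyp4f1 fell, by 1.53-fold and 1.29-fold (adjusted p = 0.0226 and 0.0193), and the list's median over 12 members was -0.23. Both lower calls ended without lignan-free replicate 4, and also without sesamolin replicate 3 for Cyp4b1 and sesamolin replicate 1 for Cyp4f1 (adjusted p up to 0.0543). That of Aldh3a2 ended with no normalization between arrays (adjusted p = 0.332).

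Fatty acid uptake, binding and activation moved less as a group: 5 of 24 members rose, 2 fell and the median was 0.08. Fabp7, a fatty acid binding protein, read 1749, 1512, 1914, 1464 and 2066 without lignan and 4868, 3306, 3222, 3449 and 4189.7 with sesamolin. The groups did not overlap and the gene rose 2.17-fold (1.12 ± 0.15, adjusted p = 8.00e-05, limma). Cd36, a fatty acid translocase, rose 3.51-fold, from 158 ± 33.3 to 648 ± 369, and the acyl-CoA synthetase Acsl3 1.83-fold. The medium-chain synthetases, Acsm2 and Acsm5, were called at 1.66 ± 0.47 and 1.58 ± 0.37. The epidermal-type binding protein Fabp5 fell from 4202 ± 929 to 2345 ± 609 (-0.85 ± 0.22, adjusted p = 0.0298). The synthetase Acsl5, named after its values were seen, was called lower at -0.52 ± 0.15. Its other probe set was at 0.11 ± 0.19. Fabp1, the main binding protein of hepatocytes, was at 0.10 ± 0.07, which did not pass (adjusted p = 0.403). Single arrays ended the call of Acsm2 (lignan-free replicates 1, 2 or 5 or sesamolin replicates 2, 3, 4 or 5; adjusted p up to 0.106) and that of Fabp5 (lignan-free replicates 2, 4 or 5 or sesamolin replicates 1, 3 or 5; up to 0.0808). The calls of Cd36 and Acsl3 ended with no normalization between arrays (adjusted p = 0.0641 and 0.192), and those of Acsm2, Acsm5 and Fabp5 with only the diets compared in the fit (up to 0.0934).

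Lipid droplet proteins and lipases had 6 of 21 members higher and 1 lower, with a median of 0.55. Plin5, the droplet coat protein that tethers droplets to mitochondria, read 25.8, 30.9, 29.1, 23.1 and 23.2 without lignan and 102, 79.8, 84.5, 104 and 78.2 with sesamolin. Each group was tight and they did not overlap, a 2.95-fold rise (1.56 ± 0.12, adjusted p = 9.28e-08, limma). The droplet fusion protein Cidea rose 4.36-fold, from 47.9 ± 5.68 to 235 ± 68.0, and monoacylglycerol lipase Mgll 3.28-fold, with log2 changes of 1.59 to 1.71 on its 3 probe sets. Fitm2, which acts in droplet budding, rose by 1.2 ± 0.18, the lipase inhibitor Hilpda by 0.75 ± 0.13 and the main droplet coat protein Plin2 by 0.65 ± 0.12. A dimmer Plin2 probe set was at -0.41, so Plin2's call ended when probe sets were averaged (adjusted p up to 0.734 over its alternatives), and the calls of Hilpda and Plin2 ended with no normalization between arrays. Ces1d and Lipc were not called, at 0.64 ± 0.22 (adjusted p = 0.0971) and -0.33 ± 0.11 (adjusted p = 0.069). The 1 member called lower, named after its values were seen, was Aadac, at -0.49 ± 0.11.

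Among genes of ketone body synthesis and fasting, 5 of 14 rose and none fell, with a median of 0.43. Acat1, the mitochondrial acetoacetyl-CoA thiolase, read 2719, 2552, 2529, 2393 and 2657 without lignan and 4939, 4109, 4689.6, 5045 and 4493 with sesamolin. The controls lay within a narrow band below every sesamolin array, and Acat1 rose 1.81-fold (0.85 ± 0.10, adjusted p = 3.21e-05, limma). Pdk4, the kinase that shuts pyruvate out of oxidation, rose 2.98-fold, from 774 ± 325 to 2254 ± 570.1. The monocarboxylate transporters Slc16a1 and Slc16a6, which carry ketone bodies, rose by 0.70 ± 0.13 and 0.64 ± 0.15. Angptl4, a secreted lipase inhibitor, was called at 1.0 ± 0.27 with overlapping diets, and single arrays ended its call (lignan-free replicates 1, 2 or 4 or sesamolin replicates 1, 2, 3 or 5; adjusted p up to 0.0854). Bdh1 and Pdk2 were near 0. With no normalization between arrays the calls of Acat1, Slc16a1, Slc16a6 and Angptl4 ended (adjusted p up to 0.244).

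Carbohydrate genes that changed went down. Of 27 members of glycolysis, gluconeogenesis and glycogen metabolism 3 fell and none rose, with a median of -0.04. Slc2a2, the glucose transporter of the hepatocyte membrane, read 3999.6, 4049, 4018, 4617 and 4419.6 without lignan and 2477, 2259, 2451, 2696 and 2569 with sesamolin. The groups were tight and apart, a 1.69-fold fall (-0.76 ± 0.09, adjusted p = 1.72e-05, limma). Liver pyruvate kinase Pklr fell 2-fold, from 4339 ± 386 to 2184 ± 367, and Slc37a4, which brings glucose 6-phosphate into the endoplasmic reticulum, 1.63-fold. Mlxipl, the carbohydrate response factor that drives Pklr, is in the next list and fell 1.47-fold, from 149 ± 22.4 to 99.6 ± 12.2. Calls of these 4 genes held under each alternative fitted for single genes. Lactate dehydrogenase Ldha and fructose bisphosphatase Fbp1 did not pass, at 0.13 ± 0.06 and -0.04 ± 0.08.

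Fatty acid and triglyceride synthesis had 4 of 31 members higher and 3 lower, with a median of -0.05. Dgat2, which adds the last acyl chain of triglyceride, read 2473, 2605, 3113, 3554 and 2638 without lignan and 1507, 2013, 1576, 1946 and 1714 with sesamolin. No sesamolin array reached the lowest control, and Dgat2 fell 1.64-fold (-0.71 ± 0.11, adjusted p = 0.000458, limma). Dgat1, an unrelated enzyme of the same step, rose by 0.44 ± 0.10, and its call ended under median scaling, with no normalization between arrays and with only the diets compared in the fit (adjusted p up to 0.541). Malic enzyme Me1, the desaturase Fads2 and the elongase Elovl1 were called at 0.73 ± 0.19, 0.49 ± 0.13 and 0.37 ± 0.10. Single arrays ended the call of Me1 (lignan-free replicates 1, 3 or 5 or sesamolin replicates 2 or 3), Fads2 (lignan-free replicates 1 or 5 or sesamolin replicates 2, 3 or 4) and Elovl1 (lignan-free replicates 2, 3 or 4 or sesamolin replicates 1, 2 or 5), with an adjusted p up to 0.0727. Acss2, the cytosolic acetyl-CoA synthetase, named after its values were seen, fell by 0.71 ± 0.19. The desaturase Scd and the lipogenic factor Thrsp did not pass, at -0.06 ± 0.07 and -0.18 ± 0.11.

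Apolipoproteins and lipoprotein assembly had 3 of 21 members lower and none higher, with a median of -0.20. Apom, an apolipoprotein of HDL that carries sphingosine 1-phosphate, read 4845, 4854, 4433, 4719.6 and 5021 without lignan and 2500.2, 3702, 3658, 2911 and 3326 with sesamolin. The lignan-free arrays were tight and all higher, and Apom fell 1.5-fold (-0.58 ± 0.11, adjusted p = 0.00397, limma). Apoa4 fell from 7383 ± 245 to 4455 ± 1467 with a wide spread among sesamolin rats, and Apob, the core protein of VLDL, from 10857 ± 591 to 8874 ± 1162. The call of Apoa4 ended without sesamolin replicate 1 or 3 (adjusted p up to 0.0547), and that of Apob in turn (lignan-free replicates 1, 2, 3, 4 or 5 or sesamolin replicates 1, 2, 3 or 4; up to 0.125). Cholesterol synthesis and uptake had 0 of 21 members called, with 17 of 21 below 0 and a median of -0.14; without lignan-free replicate 3, 7 were called lower. Bile acid synthesis and transport had 2 of 21 higher. The organic anion transporter Slco1a4 read 1138, 858, 865, 586 and 1031 without lignan and 1801, 2009, 3281, 2821 and 3353 with sesamolin. The groups did not overlap, a 2.93-fold rise (1.55 ± 0.24, adjusted p = 0.00043). Sterol exporter Abcg5 was called at 1.13 ± 0.31 on a dim probe set, and single arrays ended that call (lignan-free replicates 1, 2 or 4 or sesamolin replicates 2, 3, 4 or 5; adjusted p up to 0.0908).

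Genes that answer the xenobiotic receptors CAR and PXR had 5 of 19 members higher and none lower, with a median of 0.31. Aldh1a1, a retinaldehyde dehydrogenase, read 328, 544, 1415, 691 and 542 without lignan and 3238, 2096, 3184, 3140.0 and 3617 with sesamolin. Lignan-free replicate 3 was the highest control and lay below every sesamolin array, and the gene rose 4.78-fold (2.26 ± 0.34, adjusted p = 0.000438, limma). Ces2c, a carboxylesterase, rose 2.55-fold, from 125 ± 42.0 to 328 ± 94.5. P450 reductase Por, the heme synthesis enzyme Alas1 and Cyp2c6v1 were called at 0.58 ± 0.16, 0.53 ± 0.16 and 0.29 ± 0.08. Single arrays ended the calls of Por (lignan-free replicates 1, 2, 4 or 5 or sesamolin replicates 1, 2, 3 or 5), Alas1 (lignan-free replicates 1, 2, 3, 4 or 5 or sesamolin replicates 1, 2, 3 or 5) and Cyp2c6v1 (lignan-free replicates 1, 2, 3 or 5 or sesamolin replicates 1, 2, 3 or 5), with an adjusted p up to 0.128. Cyp2b3 and Cyp2c7, the brightest members not called, were at -0.02 ± 0.07 and 0.00 ± 0.07. Of 10 genes listed for AhR 6 were tested and none was called, with Cyp1a2 at -0.44 ± 0.20 (adjusted p = 0.223). The 6 include the receptor Ahr itself and its partner Arnt. The targets Cyp1a1, Ahrr, Ugt1a6 and Aldh3a1 were not tested, so their response is not known here.

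Glutathione enzymes and Nrf2 targets had 5 of 38 members higher and a median of 0.04. The carbonyl reductase Cbr1 read 107, 138, 139, 103 and 118 without lignan and 304, 188, 234, 289 and 329 with sesamolin. The groups did not overlap, a 2.14-fold rise (1.10 ± 0.17, adjusted p = 0.000611, limma). The glutathione transferases Gstm7 and Mgst3 rose by 0.82 ± 0.16 and 0.43 ± 0.09, and the lipid peroxide reductase Gpx4 by 0.34 ± 0.07. All 4 calls ended with no normalization between arrays (adjusted p = 0.0531 for Cbr1 and up to 0.61 for Gpx4), and under median scaling for Mgst3 and Gpx4. Papss2, which makes the sulfate donor, is in the conjugation list and read 1455, 1374, 1244, 1539 and 1785 without lignan and 784, 1068, 1023, 937 and 993 with sesamolin. It lay lower on every sesamolin array and fell 1.53-fold (-0.62 ± 0.10, adjusted p = 0.000669). Sulfotransferase Sult1c2 was called higher at 1.02 ± 0.29 and Ugp2, which makes UDP-glucose, lower at -0.65 ± 0.17. Single arrays ended the calls of Sult1c2 (lignan-free replicates 1, 2, 3 or 4 or sesamolin replicates 1, 3, 4 or 5; adjusted p up to 0.0967) and Ugp2 (lignan-free replicates 1, 3 or 5 or sesamolin replicates 3 or 4; up to 0.0806).

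Several of the largest increases lie in none of the fatty acid lists. Aig1, a membrane hydrolase of fatty acid esters of hydroxy fatty acids, read 103, 71.8, 164, 106 and 83.7 without lignan and 1650.0, 1007, 1437, 1681 and 1356 with sesamolin. Every sesamolin array was several times the highest control, a 13.1-fold rise (3.71 ± 0.19, adjusted p = 2.18e-10, limma). Hdc, histidine decarboxylase, which makes histamine, read 30.2, 29.7, 15.4, 21.1 and 30.6 and then 1289.8, 202, 566, 787 and 771. Sesamolin rats varied, with replicate 1 highest and replicate 2 lowest, and all lay above the controls (20.4-fold, 4.35 ± 0.66, adjusted p = 0.000385). Nim1k, a protein kinase related to AMPK, read 4.34, 34.4, 64.3, 24.6 and 71.5 and then 679, 229.7, 344, 386 and 848. Its control in replicate 1 was near the floor of the array, and the diets did not overlap (12.3-fold, 3.62 ± 0.46, adjusted p = 5.11e-05).

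Colq, the collagen tail that anchors acetylcholinesterase, read 15.6, 7.96, 26.5, 18.0 and 24.7 without lignan and 234, 167, 240.2, 268 and 296 with sesamolin. Of its controls 2 lay below the filter level and the highest was far below every sesamolin array (10.4-fold, 3.38 ± 0.25, adjusted p = 2.95e-08, limma). Chrna2, a nicotinic receptor subunit, read 1.61, 4.13, 2.89, 3.12 and 18.1 and then 232, 93.3, 148, 80.4 and 110.3. Of its controls only replicate 5 exceeded the filter level, and the rise was at least 6.89-fold (adjusted p = 5.41e-06). Spmip11, named for sperm microtubules, was dim on 3 of 5 lignan-free arrays and rose at least 7.47-fold to 180.4 ± 68.0. The small GTPase Rhof rose 6.05-fold, from 22.1 ± 12.4 to 153 ± 41.8. Hsdl2, a peroxisomal short-chain dehydrogenase, rose 5.34-fold, from 533 ± 94.5 to 2867 ± 429. Calls of Aig1, Hdc, Nim1k, Colq, Chrna2, Spmip11, Rhof and Hsdl2 held under each alternative fitted for single genes, left-out arrays included. Among genes called higher, 24 had a lignan-free mean below the filter level and passed the filter through other arrays.

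**Figure D3:**
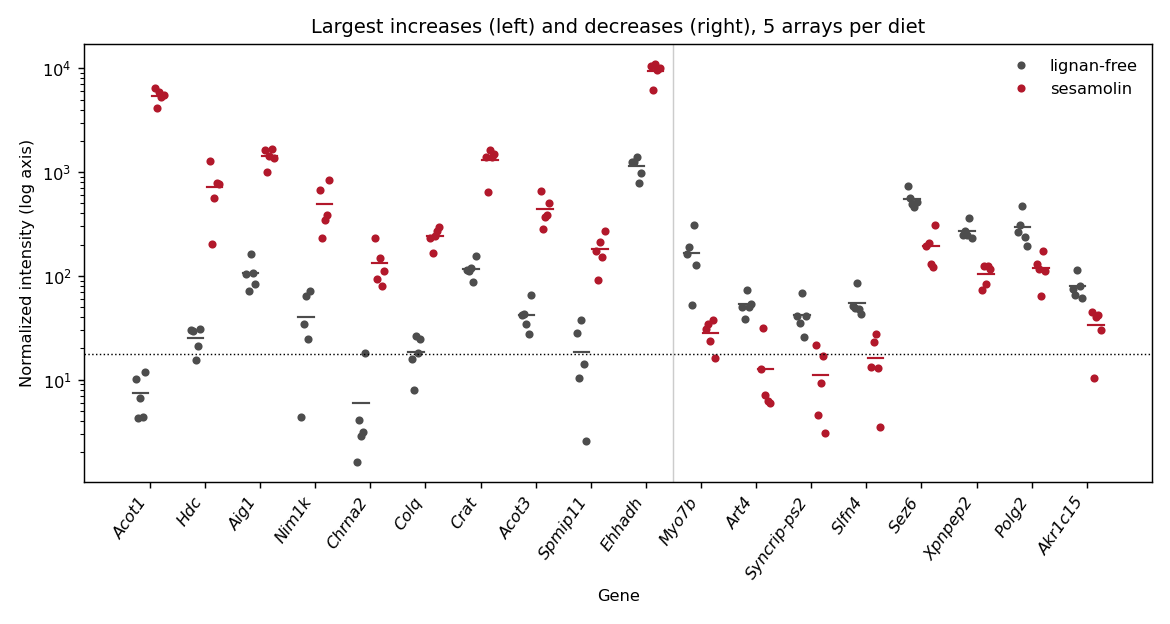
Normalized intensity on each array (log axis) of the 10 largest increases, left, and the 8 largest decreases, right, among called genes chosen for having no overlap between the diets, 5 lignan-free arrays in grey and 5 sesamolin arrays in red, with a bar at the group mean and a dotted line at the filter level of 17.8. Acot1, Chrna2 and Spmip11 have most of their lignan-free arrays below the line.

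The decreases named first are the largest among called genes without overlap between the diets, and Atp6ap1l, a larger one than Xpnpep2 at -1.63 ± 0.42, overlapped and is named after its values were seen. Myo7b, an unconventional myosin of brush borders, read 162, 188, 52.1, 308 and 127 without lignan and 30.9, 34.4, 23.5, 37.3 and 16.1 with sesamolin. Controls spread widely with replicate 3 lowest, still above every sesamolin array, and Myo7b fell 4.53-fold (-2.18 ± 0.39, adjusted p = 0.00196, limma). Sez6, a membrane protein known from neurons, read 742, 557, 493, 461 and 513 and then 195, 209, 131, 122 and 308. It was lower in all sesamolin rats (2.93-fold, -1.55 ± 0.21, adjusted p = 0.000113). Xpnpep2, a membrane-bound aminopeptidase P, read 249.9, 268, 247, 357 and 232 and then 73.5, 125, 82.7, 124 and 116. Its groups were apart, with control replicate 4 the highest (2.54-fold, -1.34 ± 0.18, adjusted p = 9.79e-05).

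For 3 further decreases most sesamolin arrays were below the filter level, so the fall is a bound. Art4, an ADP-ribosyltransferase family member that carries a blood group, read 50.2, 38.1, 73.7, 50.6 and 53.2 without lignan and 12.6, 31.1, 7.04, 6.19 and 6.0 with sesamolin. It was measured in 5 controls and in sesamolin replicate 2 only, a fall of at least 2.61-fold (adjusted p = 0.0205, limma). Slfn4, a Schlafen family gene known from myeloid cells, read 51.5, 49.1, 84.5, 47.8 and 42.7 and then 13.3, 23.3, 27.6, 12.8 and 3.47. It fell at least 2.6-fold (adjusted p = 0.00163). Syncrip-ps2, listed as a pseudogene and so open to signal from its parent gene, read 41.0, 35.1, 68.4, 26.0 and 41.2 and then 21.6, 4.55, 9.31, 16.8 and 3.07. It fell at least 2.17-fold (adjusted p = 0.00367). The call of Art4 ended without sesamolin replicate 3 or 5 (adjusted p up to 0.0538).

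Other decreases included Polg2, the accessory subunit of the mitochondrial DNA polymerase, at -1.28 ± 0.26, and the aldo-keto reductase Akr1c15 at -1.19 ± 0.27. Cyclin L2, Ccnl2, fell 2.15-fold, from 300.3 ± 62.3 to 135 ± 13.8, and the MAP kinase kinase Map2k6 2.09-fold. Topbp1, a DNA damage checkpoint protein, and Cep152, a centriole protein, were at -1.04 ± 0.15 and -1.03 ± 0.23. Topbp1 was at 0.35 on its other probe set, Ccnl2 read 0.04 and -0.45 on its others, and the call of Topbp1 ended when probe sets were averaged (adjusted p = 0.304). Those of Polg2, Akr1c15 and Cep152 ended without the 6 dim arrays (adjusted p up to 0.0879). Fructosamine 3-kinase Fn3k and Rtn4rl2, a Nogo receptor relative, were called at -1.13 ± 0.31 and -1.07 ± 0.31, and single arrays ended the calls of Fn3k (lignan-free replicates 2, 4 or 5 or sesamolin replicate 5; adjusted p up to 0.0783) and Rtn4rl2 (lignan-free replicates 1, 2, 3, 4 or 5 or sesamolin replicates 2, 3, 4 or 5; up to 0.116). Thumpd3-as1, an antisense RNA below the filter level in all sesamolin rats, lost its call likewise (lignan-free replicates 2, 3, 4 or 5 or sesamolin replicates 3, 4 or 5; up to 0.0825).

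Markers of Kupffer cells, the resident macrophages of liver, fell as a group: 9 of 13 were called lower and none higher, with a median of -0.66 (16 were listed and 13 were on the array). C1qa, a chain of complement C1q made by macrophages, read 1366, 1676, 1344, 1436 and 1305 without lignan and 620.4, 784, 995, 874 and 648 with sesamolin. All sesamolin arrays lay below all controls, a 1.83-fold fall (-0.87 ± 0.13, adjusted p = 0.000364, limma). Its partner C1qc fell 1.74-fold, the secreted scavenger protein Cd5l 1.88-fold, the Kupffer cell lectin Clec4f 1.67-fold and the mannose receptor Mrc1 1.39-fold. Aif1, an actin-binding protein of macrophages, was at -0.99 ± 0.18 on a probe set open to cross-hybridisation and at -0.08 on the other, so its call ended when they were averaged (adjusted p = 0.0543). Lysozyme Lyz2 and the endotoxin co-receptor Cd14 did not pass, at -0.35 ± 0.19 and 0.42 ± 0.24. The calls of Clec4f and Mrc1 ended without the 6 dim arrays and with no normalization between arrays, respectively (adjusted p = 0.0968 and 0.0721). When 1 array was left out, 7 to 10 of the 13 were lower.

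**Figure D4:**
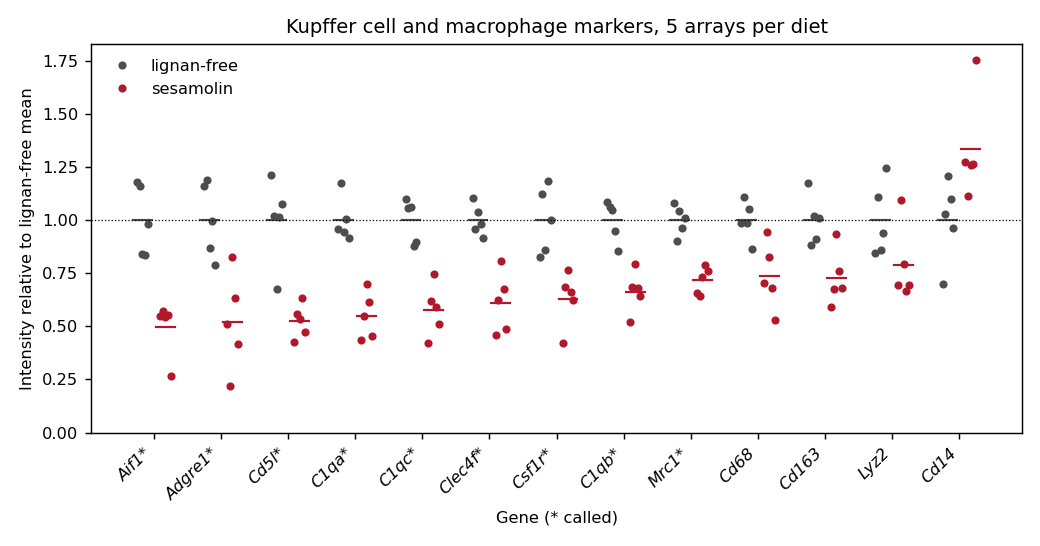
Level of 13 Kupffer cell and macrophage markers on each array relative to the gene's lignan-free mean (vertical axis, from 0), lignan-free arrays in grey and sesamolin arrays in red, bars at group means; an asterisk marks a called gene. Sesamolin means lie below 1 for 12 of the 13 markers and above it for Cd14.

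Other non-parenchymal lists moved less. Of 15 endothelial markers 2 fell, with a median of -0.23. The VEGF receptor Kdr read 892, 929, 981, 1013 and 996 without lignan and 725, 673, 683, 855 and 803 with sesamolin. It was lower in every sesamolin rat, by 1.29-fold (-0.37 ± 0.08, adjusted p = 0.0135, limma), but at 0.33 on a dimmer probe set, and its call ended when they were averaged (adjusted p up to 0.964 over its alternatives). Of 18 stellate cell and fibroblast markers 1 was called, Hgf, which read 13.3, 18.3, 15.6, 17.3 and 25.1 and then 3.31, 6.14, 15.6, 9.86 and 4.85. The diets overlapped, both means lay close to or below the filter level, and single arrays ended the call (lignan-free replicates 2, 3, 4 or 5 or sesamolin replicates 1, 2 or 5; adjusted p = 0.0378, and up to 0.0998 without them). None of 12 lymphocyte and neutrophil markers was called, and 11 of the 12 lay below 0. Of 10 hepatocyte markers 1 was called. That was Asgr1, the asialoglycoprotein receptor, which read 1719, 2143, 2248, 1914 and 1897 and then 1397, 1569, 1462, 1706 and 1684. It fell 1.27-fold (-0.34 ± 0.10, adjusted p = 0.045), and single arrays ended the call (lignan-free replicates 2, 3, 4 or 5 or sesamolin replicates 1, 2, 3 or 5; up to 0.108). Albumin was at 0.04 ± 0.10.

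Acute phase, coagulation and complement genes were lower in 11 of 45 cases and higher in 1, with a median of -0.14. C1s, the complement protease that acts with C1q, read 4408, 4128, 3542, 4308 and 3981 without lignan and 1599.6, 2363, 2559.6, 2686 and 1706 with sesamolin. The groups were far apart, a 1.9-fold fall (-0.93 ± 0.15, adjusted p = 0.000931, limma). Coagulation factor F5 fell by 0.75 ± 0.16, the protease inhibitor A2m by 1.10 ± 0.27, ceruloplasmin Cp by 0.36 ± 0.08 and the complement regulator Cfi by 0.38 ± 0.08. F5, Cp and Cfi lost their calls without the 6 dim arrays (adjusted p up to 0.165 over their alternatives), and Cp was at 0.02 on another probe set. Heparin cofactor Serpind1 was called at -0.28 ± 0.07. The most abundant members, Fgg, C3 and Serpina1, did not pass (adjusted p at least 0.628). Orm1, an acute phase glycoprotein named after its values were seen, was the 1 called higher. The lower count was 10 or less without any single array and 4 without sesamolin replicate 1 or 3; other arrays that took it below 8 were lignan-free replicates 1 to 5 (7, 6, 6, 5 and 7) and sesamolin replicate 5 (5). The calls of A2m (lignan-free replicate 4, sesamolin replicates 1 and 3) and Serpind1 (lignan-free replicates 2, 3 or 4 or sesamolin replicates 1, 3, 4 or 5) ended without those arrays (adjusted p up to 0.0748). The part of the lower Kupffer cell markers in these results was not tested.

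In amino acid catabolism and ureagenesis, 6 of 51 members fell and 3 rose, with a median of -0.19. Of the higher members Hdc is described above, and Agxt, which transaminates glyoxylate in peroxisomes, rose by 0.54 ± 0.11. Dmgdh, dimethylglycine dehydrogenase of choline breakdown, fell 1.85-fold, from 664 ± 117 to 355 ± 49.8. The urea cycle enzymes Ass1 and Otc fell by 0.52 ± 0.12 and 0.36 ± 0.08 and Nags, which makes the activator of the cycle, by 0.50 ± 0.12 (adjusted p = 0.0143, 0.016 and 0.0181, limma). Calls of Ass1, Otc and Nags ended with only the diets compared in the fit. Those of Otc, Nags and Agxt ended with no normalization between arrays and without the 6 dim arrays (adjusted p up to 0.322 for Agxt). That of Otc also ended under median scaling (adjusted p up to 0.164 over its alternatives). Cdo1 and Hpd did not pass.

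Male-pattern genes and the growth hormone axis had 5 of 28 members lower and 1 higher. Cyp2f4, a lung-type P450, read 855, 923, 826, 868 and 937 without lignan and 620.0, 674, 557, 502 and 550.5 with sesamolin. The groups were tight and apart, a 1.52-fold fall (-0.60 ± 0.09, adjusted p = 0.000312, limma). Igfbp3, the main carrier of IGF1, fell by 0.63 ± 0.14, a call lost without the 6 dim arrays and with no normalization between arrays (adjusted p up to 0.105). Hsd11b1, which activates glucocorticoids, and the IGF carrier Igfbp4 were called at -0.60 ± 0.15 and -0.48 ± 0.13. Their calls ended without sesamolin replicate 1 or 3 for Hsd11b1 (adjusted p up to 0.0535) and in turn for Igfbp4 (lignan-free replicates 1, 2, 3 or 4 or sesamolin replicates 1, 3, 4 or 5; up to 0.0914). Cyp2j3 was called higher at 0.44 ± 0.10, and lost that call under either other scaling (adjusted p up to 0.445). Cyp2c11, the male-specific P450, stood at 0.05 ± 0.08, not called (adjusted p = 0.783).

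Endoplasmic reticulum folding and stress genes had 3 of 26 members lower and 1 higher. The chaperone Hsp90b1 read 3251, 3001, 3824, 3529.8 and 3321 without lignan and 2426, 2911, 2300.3, 2576 and 2125 with sesamolin. The groups were apart, a 1.37-fold fall (-0.46 ± 0.09, adjusted p = 0.00353, limma); its call ended with no normalization between arrays (adjusted p = 0.056). The co-chaperones Dnajc3 and Sdf2l1 were called at -0.39 ± 0.10 and -0.53 ± 0.14, and the membrane-bound factor Creb3l3, which works with PPAR alpha in fasting, higher at 0.46 ± 0.11. Single arrays ended the calls of Dnajc3 (lignan-free replicates 1 or 5 or sesamolin replicates 2 or 3), Sdf2l1 (lignan-free replicates 2, 3 or 5 or sesamolin replicates 1 or 5) and Creb3l3 (lignan-free replicates 1 or 4 or sesamolin replicates 3 or 5), with an adjusted p up to 0.0799. The chaperone Hspa5 did not pass, at -0.14 ± 0.11.

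Mitochondrial carriers had 1 of 30 members higher and 2 lower, beside 3.28% and 2.95% of all genes tested. Slc25a42, which brings coenzyme A into mitochondria, read 93.4, 119.7, 104, 83.4 and 100.5 without lignan and 173, 134, 199, 151 and 201 with sesamolin. The groups did not overlap, a 1.67-fold rise (0.74 ± 0.13, adjusted p = 0.00169, limma), and the call ended with no normalization between arrays (adjusted p = 0.241). The carriers called lower were Slc25a12, which exports aspartate, at -0.66 ± 0.17 and Slc25a38, which imports glycine, at -0.43 ± 0.11. Single arrays ended the calls of Slc25a12 (lignan-free replicates 2, 4 or 5 or sesamolin replicates 1, 2, 3 or 4) and Slc25a38 (lignan-free replicates 1, 2 or 4 or sesamolin replicates 1, 3 or 5), with an adjusted p up to 0.0788, and 0 carriers were lower without lignan-free replicate 2 or 4 or sesamolin replicate 1 or 3 (limma). Of 17 PPARs and partner receptors 1 rose and 1 fell, beside 3.28% and 2.95% of all genes tested. Ppara, the gene of PPAR alpha, was not among the 17 tested, so its level is not known here. Rxrg, an RXR form that pairs with PPARs, read 282, 393, 264, 284 and 310.5 and then 540.4, 482, 467, 414 and 476. It lay higher on every sesamolin array, by 1.55-fold (0.63 ± 0.14, adjusted p = 0.0116), and its call ended under median scaling and 3 other alternatives (adjusted p up to 0.359). The glucocorticoid receptor Nr3c1 was called at -0.52 ± 0.13, and its call ended without lignan-free replicates 1 or 5 or sesamolin replicates 3 or 4 (adjusted p up to 0.0664).

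The remaining lists held few calls, and each of these ended when 1 of several arrays was left out. Of all genes tested, 3.28% were called higher and 2.95% lower. Of 26 interferon-induced genes 3 were called lower, and no more than 1 without any single array. Stat2, the signal carrier of type I interferon, read 276, 340.0, 306, 320.0 and 336 without lignan and 268, 251, 253, 245 and 235 with sesamolin. It was lower in each sesamolin rat, by 1.25-fold (-0.32 ± 0.09, adjusted p = 0.047, limma), and lost its call without lignan-free replicates 2, 3, 4 or 5 or sesamolin replicates 1, 2, 3, 4 or 5 (adjusted p up to 0.108). Of 41 nuclear-encoded subunits of oxidative phosphorylation 2 were called higher, 31 lay above 0 and the median was 0.09. Ndufb9, of complex I, read 4183, 4342, 4261, 4479 and 4457 and then 5230.3, 5323, 4920.5, 5004 and 5396. The diets did not overlap (0.25 ± 0.07, adjusted p = 0.0355), and the call ended without lignan-free replicates 1, 2, 3, 4 or 5 or sesamolin replicates 1, 2, 4 or 5 (up to 0.082). With no normalization between arrays the median of that list was -0.08. Of 15 clock genes 1 was called, the nuclear receptor Rora, which read 129, 145, 192, 165 and 165 and then 168, 214, 267, 230.3 and 249. The diets overlapped (0.48 ± 0.13, adjusted p = 0.0314), and the call ended without lignan-free replicates 1, 2, 4 or 5 or sesamolin replicates 3, 4 or 5 (up to 0.0809). None of 35 cell cycle genes was called, with the proliferation markers Pcna and Cdk4 at 0.05 ± 0.17 and -0.07 ± 0.09.

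The same dose and time allowed direct comparisons with the other lignans, which share the sesamolin arrays with the comparison above. Against sesamin, 116 genes were higher with sesamolin (1% of genes tested) and 94 lower (0.812%). Of the lists, 11 of 21 peroxisomal, 10 of 27 mitochondrial, 7 of 19 acyl-CoA and 6 of 21 lipid droplet genes were called, but 0 of 24 genes of fatty acid uptake, 1 of 12 of omega-oxidation and 1 of 14 of ketone synthesis and fasting. Acot1 stood at 1310.3 ± 923 with sesamin and 5472 ± 853 with sesamolin (2.35 ± 0.36, adjusted p = 0.00141, limma). Acot8 was called against the lignan-free diet and against sesamin, where it read 287 ± 23.7 beside 237 ± 14.3 in the controls (1.27 ± 0.11, adjusted p = 1.19e-05). Crat, Ehhadh and Cidea were 1.63 ± 0.19, 1.44 ± 0.19 and 1.56 ± 0.19 higher than with sesamin. Cyp4a3 did not pass (difference 0.20 ± 0.12, 95% interval -0.05 to 0.45). Sez6 was lower with sesamolin than with sesamin by 2.0 ± 0.21 (adjusted p = 5.67e-05), and the carrier Slc2a2 and the complement genes C1qa and C1s differed by -0.45 ± 0.09, -0.63 ± 0.13 and -0.81 ± 0.15. Under median scaling 81 genes were called, with no normalization between arrays 23, and with only these diets in the fit 52.

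Against episesamin, 0 genes were called (0% in each direction), by limma with a smallest adjusted p of 0.368; 662 genes had an unadjusted p below 0.05, beside 1683 against sesamin and 2346 against the lignan-free diet. The median 95% interval of a difference reached 0.34 to either side on the log2 scale. That interval is not adjusted for the number of genes tested, so differences larger than 0.34 could also go uncalled. The absence of calls is therefore not a measure of equality. For Eci1 the difference was -0.01 ± 0.12 (interval -0.25 to 0.24), for Crot 0.00 ± 0.12 (-0.25 to 0.26) and for Cyp4a1 0.07 ± 0.10 (-0.14 to 0.29). For Acot1 it was -0.12 ± 0.36, with an interval of -0.86 to 0.63 that leaves room for differences in either direction. Sez6 read 383 ± 81.6 with episesamin against 193 ± 75.0 with sesamolin, a difference of -1.02 ± 0.21 (-1.47 to -0.58) that did not pass adjustment over all genes (adjusted p = 0.49). Sult1c2 was 0.85 ± 0.29 higher with sesamolin (0.25 to 1.45, adjusted p = 0.819).

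**Figure D5:**
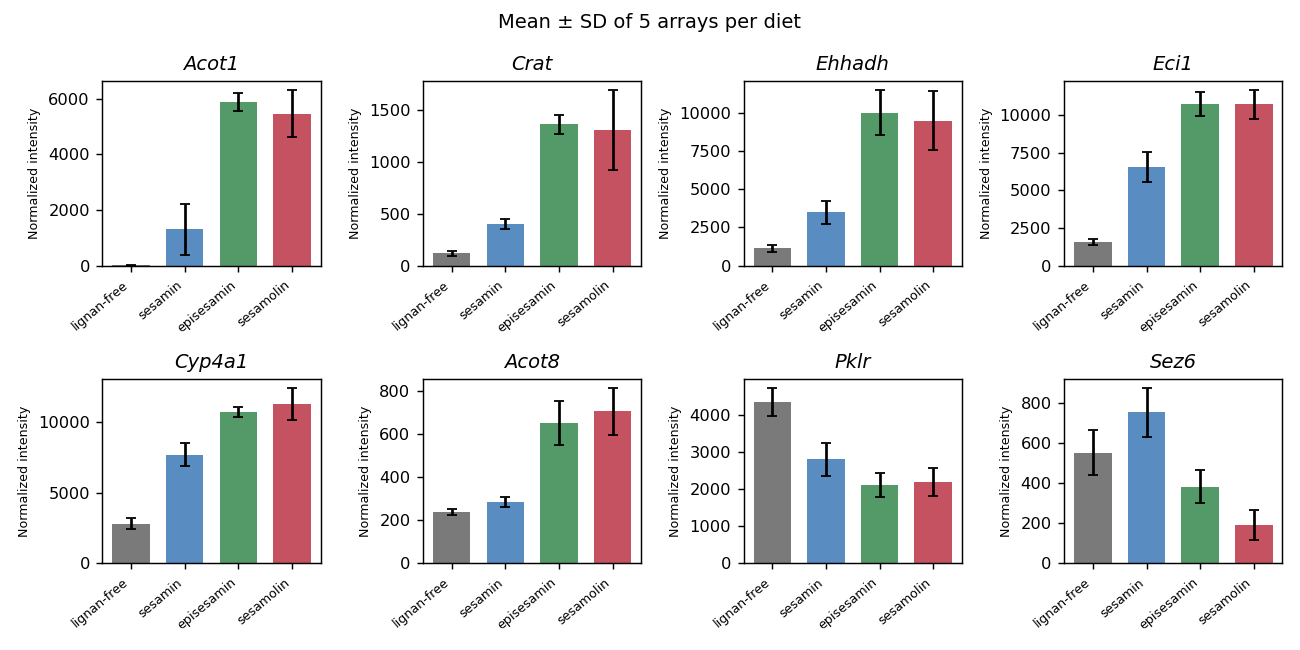
Normalized intensity (vertical axis, from 0) of 8 genes in the 4 diets, bars at the mean and error bars at 1 SD of 5 arrays. Sesamolin and episesamin means differ by less than 1 sesamolin SD for the 7 genes other than Sez6, and sesamin bars lie between these and the lignan-free bars except for Sez6.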

How the data were processed

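The deposited values are linear intensities per probe set, 1 array per rat, as the authors deposited them; the software behind them and any scaling are not given in the sources used here. Of 31099 probe sets, 20832 carry 1 gene symbol, 436 several and 9831 are not listed in the annotation table used; 57 are controls. Arrays were quantile normalized together, the 20th percentile (5.85) was added and log2 taken. Probe sets above the 40th percentile (17.8) on at least 5 of 20 arrays were kept, and a gene was read from its brightest probe set, which left 11576 of 14217 genes. limma 3.58.1 in R 4.3.3 was fitted with a mean per diet over all 20 arrays (16 residual and 2.6 prior degrees of freedom), with Benjamini-Hochberg adjustment over all genes. The fit was tested on simulated data. Each rat gave 1 array, so p-values rest on the spread between rats within a diet, pooled over all diets in the fit. The rats of highest and lowest body weight were not on arrays, so the spread is that of the rats kept. The number of arrays limits the precision.

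Genes were named by this rule: the 20 that rose most and the 15 that fell most among called genes without overlap between the diets, and from each gene list up to 6 called members by adjusted p and up to 2 uncalled members of highest level; uncharacterised loci were passed over, and a gene outside the rule is marked as chosen after its values were seen. Gene lists, markers and this rule were chosen with earlier results of these data known, so counts over lists are descriptions. Members below the filter or without a probe set were not tested. Genes on probe sets with a suffix for cross-hybridisation numbered 107. Alternatives covered normalization, offset, filter, probe set choice, moderation, array weights, diets in the fit, a replicate block, brightness, actin 3' to 5' ratio and each array left out; the actin ratio and a Kupffer cell marker covariate were chosen after seeing the data.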

Additional observations from a re-analysis of the deposited data

Results flagged for a closer look

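Within a diet, 278 sets of 5 arrays were examined, each a called gene named by the rule or the mean raw intensity. Of these, 19 held 1 array that stood apart by more than the critical gap ratio of 0.71, where chance gives about 5%. In the lignan-free group, replicate 3 stood apart for Ccnl2 at 409, Ces2c at 198, Por at 823, Serpind1 at 6720.4 and Slfn4 at 84.5. Replicate 4 did so for Cyp2c6v1 at 8065, Eci1 at 1203, Rtn4rl2 at 198 and Xpnpep2 at 357. Replicate 5 was apart for Chrna2 at 18.1 and Pdk4 at 1349.8, and replicate 2 for Acot8 at 262. Among sesamolin rats, replicate 2 stood apart for Crat at 643, Akr7a2 at 2162, Art4 at 31.1 and Serpind1 at 5388. Single cases were Gpx4 in replicate 3 at 4992, Alas1 in replicate 4 at 1099 and Aif1 in replicate 5 at 50.1. For Crat, Eci1, Acot8, Chrna2, Xpnpep2, Slfn4, Ces2c, Pdk4 and Ccnl2 the call held without any single array.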

How the results depend on the processing

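Of the 138 called genes named by the rule, 59 kept call and direction in every alternative fitted for single genes (all but the Kupffer cell marker covariate, which was run for counts only), 79 lost the call in at least 1, 40 of them when 1 array was left out, and 0 changed direction. Genes called higher numbered 380, and 178 under median scaling, 68 with no normalization between arrays, 210 with only the sesamolin and lignan-free arrays in the fit and 217 without the 6 dim arrays. Genes called lower numbered 342, and 196 with no normalization between arrays, 162 with only those arrays in the fit and 154 without the dim arrays. Leaving out 1 array gave 250 to 350 higher and 210 to 312 lower. With the summed Kupffer cell marker level as a covariate, chosen after seeing the data and not overlapping between the diets, 47 were higher and 11 lower. Calls against sesamin numbered 210, and 81 under median scaling, 23 with no normalization between arrays and 52 with only the sesamolin and sesamin arrays in the fit. Against episesamin, 0 genes were called in each alternative run. With fewer arrays a fit has fewer degrees of freedom; the cause of the other changes was not tested. Deviations of same-numbered sesamolin and lignan-free rats correlated weakly (-0.06 to 0.13). With the replicate number as a block, 434 genes were higher and 424 lower, more than the 380 and 342 without it. The weak correlations and the added calls point different ways, so they do not settle whether the numbers pair the rats. Dim genes have no stable fold, which moves with the offset.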

Other observations

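A few gene families outside the lists were counted after their values were seen, so their counts are descriptions. Of 36 proteasome subunits, which build the protease that degrades ubiquitinated proteins, 9 were called higher (3.28% of all genes tested were) and 1 lower, 32 lay above 0 and the median log2 change was 0.22. The base ATPase Psmc3 was at 0.38 ± 0.07 and the core subunit Psmb3 at 0.36 ± 0.08 (adjusted p = 0.00322 and 0.00672, limma), while the immunoproteasome subunit Psmb8 was the 1 called lower, at -0.43 ± 0.12. Psmb8 lost that call without any 1 of lignan-free replicates 1, 2, 4 or 5 or sesamolin replicates 1, 3, 4 or 5 (adjusted p up to 0.124), and under 9 other alternatives. Of 76 mitochondrial ribosomal proteins 8 were called higher and 1 lower, 65 lay above 0 and the median was 0.15, with Mrps18b at 0.48 ± 0.09. Of 24 proteins of mitochondrial import (Timm and Tomm) 4 were called higher and the median was 0.20; Timm10b, a chaperone of the intermembrane space, went from 235 ± 47.2 to 419 ± 13. These small shifts depended on scaling. Under median scaling the 3 families had 0, 1 and 1 members called higher and medians of 0.15, 0.06 and 0.08. With no normalization between arrays none of their members was called higher, and the medians were 0.02, -0.07 and -0.04, so the direction of the last 2 flips.

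Of 19 antigen-presenting genes of the MHC (RT1) and Cd74 tested, 2 were called lower (2.95% of all genes tested were), 3 lay above 0 and the median was -0.53, with -0.64 under median scaling and -0.76 with no normalization between arrays. The called genes were the class II chains RT1-Ba at -0.68 ± 0.17 and RT1-Da at -0.77 ± 0.21 (adjusted p = 0.0204 and 0.0355, limma). RT1-Ba was at -0.26, 0.07 and 0.43 on its 3 other probe sets, and RT1-Da overlapped between the diets. Class II genes are carried by macrophages and other antigen-presenting cells, and the summed level of 13 Kupffer cell markers was lower in the same rats, at 6321 ± 765 against 9496 ± 413; its part in these values was not tested.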
